A study of Mus musculus with 6 samples.

Results

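Adipose tissue sends hormones into the blood and is itself a target of insulin. The genes described here are 10 that stand for both sides of this exchange, taken by gene name: 5 encode products secreted by adipocytes (Adipoq, Lep, Retn, Agt and Nampt) and 5 carry the insulin signal inside the cell (Insr, Irs1, Irs2, Akt2 and Pik3r1). Each of the 10 had 1 feature on the arrays, out of 25206 features in all. They were measured in brown adipose tissue (BAT) of female FoxP3 DTR mice, called B6 in the labels (the methods of the study name a B6N line whose Foxp3 allele came from another strain), in which Foxp3 regulatory elements drive the receptor for diphtheria toxin. The toxin therefore acts on regulatory T (Treg) cells in the whole animal and not in BAT alone. Mice injected with diphtheria toxin (DT) on 2 consecutive days (mice 5, 9 and 16) were compared with mice of the same genotype injected with PBS (mice 12, 18 and 20). After 1 week in single cages at 22°C, both groups were cold-exposed at 4°C for 2 days from the first injection. The age of the mice is not given in the labels, and the study's methods give a milder cold temperature than the labels followed here.

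Adiponectin (Adipoq) is known to improve insulin sensitivity, leptin (Lep) signals fat stores to the brain, and resistin (Retn) is made by adipocytes in mice. Angiotensinogen (Agt) is the precursor of the angiotensins, and Nampt makes a precursor of the cofactor NAD and is also found outside cells. On the insulin side, the receptor (Insr) phosphorylates the substrate proteins Irs1 and Irs2, these bind the regulatory subunit of phosphoinositide 3-kinase (Pik3r1), and the lipid product of that kinase leads to activation of the kinase Akt2, which in fat cells promotes glucose uptake. Irs2 transcription is known, mainly from liver, to be repressed by insulin and driven by FOXO transcription factors and cyclic AMP.

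No gene of the 10 passed the test (limma, Benjamini-Hochberg adjusted p under 0.05 over all features), where 1.73% of all features did (1.29% higher and 0.444% lower in DT). At an unadjusted p under 0.05 there were 5 of 10, namely Irs2, Agt, Irs1, Pik3r1 and Akt2, beside 13.3% of all features. These shares are not alike. The 10 genes were chosen with earlier results of these data known, and they were brighter than most features (median percentile 93.5). The 3 DT arrays lay apart from the 3 PBS arrays in 3 of 10 (Irs2 and Agt above, Akt2 below), a separation seen in 18.6% of all features (8.51% above and 10.1% below). The hormone genes had a median log2 difference (DT minus PBS) of 0.03 and the insulin action genes one of -0.21, beside -0.01 over all features. Of the 5 genes at an unadjusted p under 0.05, 4 were insulin action genes, 1 higher and 3 lower in DT, and 1 was a hormone gene, higher in DT. In whole tissue, fewer cells of a type and less RNA per cell cannot be told apart.

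The upstream sequences of the 3 genes with the smallest p, Irs2, Agt and Irs1, are shown because the differences of the insulin receptor substrates had opposite signs and Agt had the largest difference of the hormone genes. They are the 250 bases before the start site in RefSeq (GRCm38.p6, read 5′ to 3′ on the gene's strand), at chr8:11008930-11009179 on the minus strand for Irs2, chr1:82291440-82291689 on the minus strand for Irs1 and chr8:124569707-124569956 on the minus strand for Agt. Capitals mark matches, on either strand, to the E-box CACGTG, the cyclic AMP response core TGACG, the STAT motif TTCNNNGAA, the FOXO core GTAAACA or GTAAATA and the C/EBP motif TTGCNNAA.
Irs2: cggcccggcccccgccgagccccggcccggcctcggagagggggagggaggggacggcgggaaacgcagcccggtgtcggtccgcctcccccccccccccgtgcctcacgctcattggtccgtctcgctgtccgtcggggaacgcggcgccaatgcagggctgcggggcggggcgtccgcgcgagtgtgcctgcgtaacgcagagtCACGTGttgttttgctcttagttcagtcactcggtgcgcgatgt
Irs1: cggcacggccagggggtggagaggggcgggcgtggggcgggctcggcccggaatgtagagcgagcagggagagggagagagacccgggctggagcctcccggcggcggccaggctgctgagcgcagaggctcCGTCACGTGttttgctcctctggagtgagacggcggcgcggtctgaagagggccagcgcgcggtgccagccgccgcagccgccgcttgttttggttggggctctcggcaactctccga
Agt: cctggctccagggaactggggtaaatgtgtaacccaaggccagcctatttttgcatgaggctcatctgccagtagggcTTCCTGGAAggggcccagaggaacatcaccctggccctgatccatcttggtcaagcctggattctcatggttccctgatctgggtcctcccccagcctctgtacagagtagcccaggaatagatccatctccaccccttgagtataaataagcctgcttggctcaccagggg

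The Irs2 and Irs1 windows each held an E-box, at -44 and -115 from the start site, which 6.02% of 32851 mouse upstream windows of this length hold. In Irs1 it overlapped a cyclic AMP response core on the other strand (17.8% of windows). This core was also found in windows of Nampt (at -135), Akt2 (at -44 and -66, in windows of different start sites) and Pik3r1 (at -35). Neither window held the FOXO core (5.76%), which says only that these letters are not in this stretch. Akt2 had 1 FOXO core, GTAAATA at -202. The Agt window held 1 STAT motif, TTCCTGGAA at -172 (7.02% of windows), Akt2 another, TTCGGGGAA at -160, and the Lep window a C/EBP motif at -55 (9.56%). These are matches of letters and no evidence of binding.

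**Figure D1:**
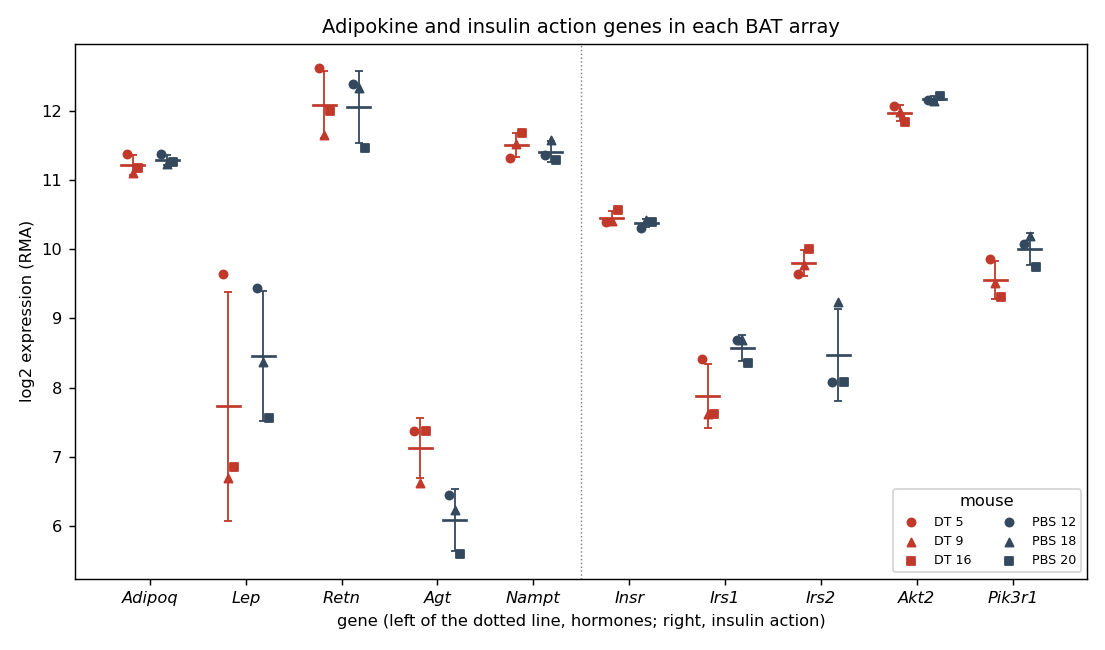
log2 expression (y axis) of the 5 hormone and 5 insulin action genes in each array, with DT mice left of PBS mice. Points are single mice, horizontal lines are group means and bars are SD (n = 3 per group); Irs2 is higher in all DT mice, while Lep spreads widely in both groups.

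Irs2 had the smallest p of the 10 genes. Its log2 expression was 9.64, 9.77 and 10.00 in DT mice 5, 9 and 16, against 8.09, 9.24 and 8.08 in PBS mice 12, 18 and 20. The groups did not overlap, the DT mice were close together (SD 0.18), and PBS 18 lay nearer to the DT mice than to the other PBS mice (SD of PBS 0.67). The difference was 1.33 (SE 0.30, 2.52-fold, 95% interval 1.54 to 4.13-fold), with a limma adjusted p of 0.0999. Leaving out PBS 18 brought the difference to 1.72 (adjusted p = 0.00518), whereas leaving out any other array gave adjusted p values between 0.183 and 0.288.

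Irs1, the other major substrate of the insulin receptor, differed in the opposite direction. It was at 8.41, 7.61 and 7.61 in DT mice 5, 9 and 16 and at 8.68, 8.69 and 8.36 in PBS mice 12, 18 and 20. DT 5 overlapped the PBS mice and the other two DT mice lay below them. The difference of -0.70 (SE 0.22) corresponded to 0.616-fold (95% interval 0.428 to 0.887-fold) and did not pass the test (limma adjusted p = 0.234). Without DT 5 it was -0.97 and passed (adjusted p = 0.0308). Without any other single array it did not pass.

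The remaining steps of the insulin cascade differed less. Pik3r1 was at 9.85, 9.51 and 9.30 in DT mice and at 10.08, 10.19 and 9.74 in PBS mice, so that DT 5 and PBS 20 overlapped (difference -0.45, SE 0.17, limma adjusted p = 0.306). Akt2 was at 12.08, 11.98 and 11.84 in DT mice and at 12.15, 12.14 and 12.22 in PBS mice. Its groups did not overlap, but the difference was small (-0.21, SE 0.08, 0.867-fold, limma adjusted p = 0.349). Insr itself was at 10.39, 10.40 and 10.57 in DT mice and at 10.31, 10.42 and 10.39 in PBS mice, which overlapped. Its difference of 0.08 (SE 0.08) had a 95% interval of 0.927 to 1.21-fold. Insr and Akt2 were bright (percentiles 95.1 and 99.1 of all features), where differences are compressed. Their values therefore describe the array signal and set no bound on the change of the transcript.

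**Figure D2:**
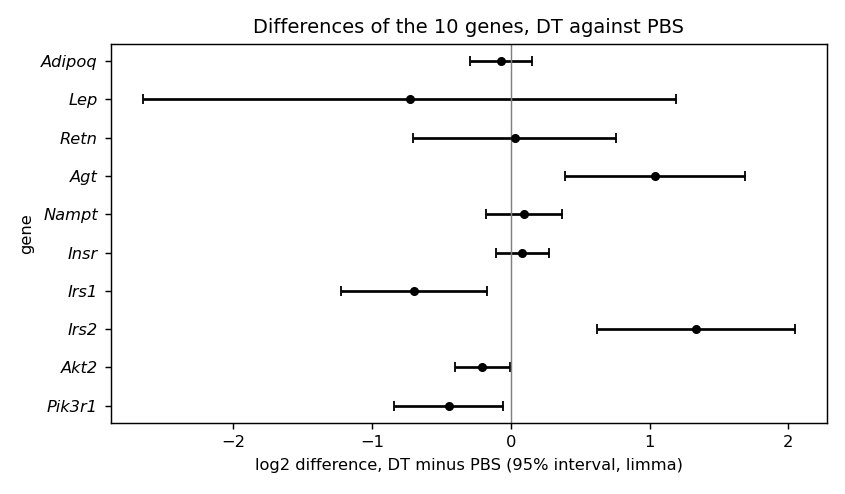
log2 difference, DT minus PBS (x axis), of each of the 10 genes (y axis) with its 95% interval from limma. Intervals are for single genes without adjustment; those of Irs2 and Agt lie above 0, those of Irs1, Pik3r1 and Akt2 below 0 and that of Lep is the widest.

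Agt, whose product is cleaved by renin, was the hormone gene with the largest difference. It was at 7.38, 6.62 and 7.38 in DT mice 5, 9 and 16 and at 6.45, 6.23 and 5.59 in PBS mice 12, 18 and 20. The groups lay apart by the narrow gap between DT 9 and PBS 12. The difference was 1.04 (SE 0.28, 2.05-fold, 95% interval 1.31 to 3.21-fold), with a limma adjusted p of 0.156 and of 0.108 to 0.390 with arrays left out in turn.

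Lep had the most uneven values of the 10 genes. It was at 9.64, 6.69 and 6.86 in DT mice 5, 9 and 16 and at 9.44, 8.37 and 7.56 in PBS mice 12, 18 and 20, so the highest and the lowest values were both from DT mice. Its residual SD of 1.35 was at the 99.9th percentile of all features. The difference of -0.73 (SE 0.82) had an interval from 0.159-fold to 2.29-fold (limma adjusted p = 0.799), too wide to tell a fall from a rise. Without DT 5 the difference was -1.68 (adjusted p = 0.244). DT 5 was also the array with the highest mean log2 level of 11 white adipocyte markers (6.91, against 6.40 and 6.61 in DT 9 and DT 16 and 6.44 to 6.52 in PBS mice). Of the 11 markers, 6 were highest in DT 5 and 2, Wt1 (4.84) and Hoxc10 (4.49), lowest. The widest gap was that of Nnat, at 9.50 in DT 5 and between 6.81 and 7.85 in the other 5 mice. PBS 12, whose Lep value (9.44) was close to that of DT 5, did not share this. Its white adipocyte marker mean was 6.52 and its Nnat 6.87. The part of white fat in the Lep values was not tested.

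Retn was bright on all arrays, with 12.61, 11.66 and 11.99 in DT mice and 12.38, 12.34 and 11.46 in PBS mice, and its groups overlapped fully (difference 0.03, SE 0.31, limma adjusted p = 0.985). The sign of this difference turned without DT 5 (-0.24) or PBS 20 (-0.27). Adipoq was at 11.38, 11.10 and 11.17 in DT mice and at 11.38, 11.23 and 11.26 in PBS mice (difference -0.07, SE 0.10, interval 0.816 to 1.11-fold). Nampt was at 11.32, 11.52 and 11.68 in DT mice and at 11.37, 11.57 and 11.29 in PBS mice (difference 0.09, SE 0.12, interval 0.882 to 1.29-fold). Both overlapped between the groups, with limma adjusted p values of 0.843 and 0.821. Retn, Adipoq and Nampt were bright (percentiles 99.1, 97.7 and 98.1 of all features), where differences are compressed. The overlap therefore does not show the absence of a change.

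**Figure D3:**
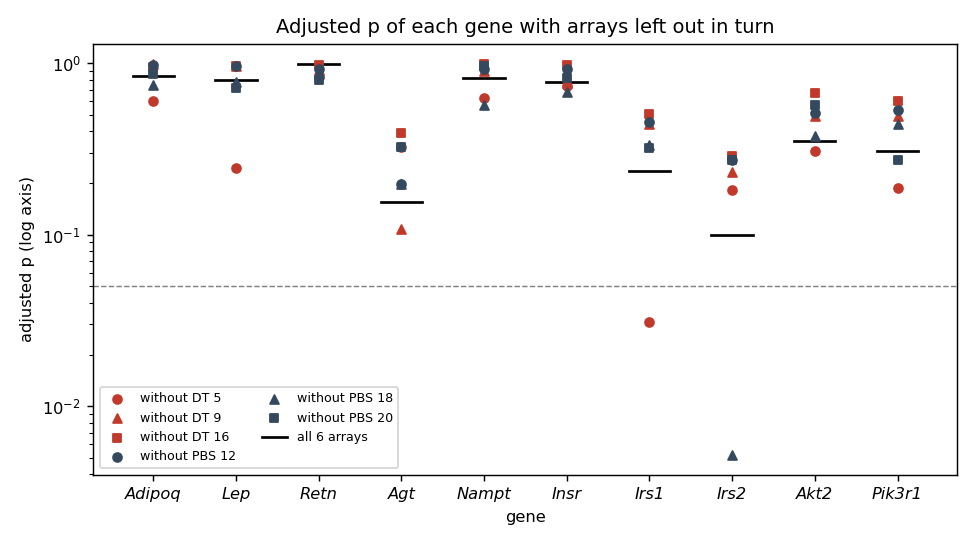
Adjusted p from limma (y axis, log scale) of each gene with all 6 arrays (black line) and with each array left out (points). The dashed line is the threshold of 0.05, below which lie Irs2 without PBS 18 (0.00518) and Irs1 without DT 5 (0.0308).

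The tissue and the cell types were checked with marker genes. Of 10 adipocyte markers and 10 brown adipocyte markers none was called, and their mean log2 levels overlapped between the groups (12.7 to 12.8 for adipocyte markers in both groups; 11.6 to 11.7 in DT and 11.5 to 11.6 in PBS for brown adipocyte markers). The adipocyte markers were all bright (percentiles 97.4 to 99.98 of all features), where differences are compressed, so the overlap does not show the absence of a change. Of them, 3 (Fabp4, Cd36 and Lpl) lay above PBS in all DT mice and 0 below, beside 8.51% above and 10.1% below of all features. The groups lay apart in 6 of 10 brown adipocyte markers (1 above and 5 below in DT), beside 18.6% of all features. Dio2 differed by 0.40 (limma adjusted p = 0.278) and Prdm16 by -0.26 (limma adjusted p = 0.299). The others apart were Cidea (-0.09), Cox8b (-0.07), Cox7a1 (-0.04) and Zic1 (-0.22). Ucp1, the uncoupling protein of brown fat, was between 13.98 and 14.01 on all arrays, close to the highest value of any feature, where differences are compressed, so that it shows the tissue and not the absence of a change. Of 11 macrophage markers 3 rose (Cd68, Ctss and Itgam, the last not without DT 16 or PBS 12), with a mean level of 7.84 to 8.05 in DT and 7.03 to 7.35 in PBS, and of 9 fibroblast and preadipocyte markers 4 rose (Col1a1, Col1a2, Col3a1 and Pdgfra, the last called only without PBS 18 when 1 array was left out, with adjusted p up to 0.108), with 9.64 to 9.85 in DT and 8.89 to 9.31 in PBS. Skeletal muscle markers were uneven in both groups (7.44 to 10.3 in DT, 8.66 to 10.1 in PBS), lowest in DT 16. None of 11 white adipocyte, 8 neutrophil, 7 T cell, 7 endothelial and 7 muscle markers passed. Neutrophil markers averaged 4.26 to 4.5 in DT and 4.16 to 4.25 in PBS, T cell markers 4.66 to 5.08 in DT and 4.94 to 4.96 in PBS, and endothelial markers 9.80 to 9.93 in DT and 9.83 to 9.89 in PBS. The part of these cell types in the values of the 10 genes was not tested. Foxp3 was at 4.30, 4.40 and 4.49 in DT mice and at 4.55, 4.41 and 4.72 in PBS mice, and this difference of -0.16 did not pass (limma adjusted p = 0.587). Its signal was weak (percentile 40.2 of all features), where differences are compressed, so this does not show that Treg cells were kept. The study measured Foxp3 by real-time PCR in BAT and spleen and reported a systemic loss of Foxp3-expressing cells.

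Around the 10 genes, 12 lists of pathway genes held 209 further genes with a named feature. Of these, 13 passed the test, 11 higher and 2 lower in DT (6.22%, beside 1.73% of all features). The 2 shares are not alike. The lists were chosen with earlier results of these data known, and their genes were brighter than most features (median percentile 79.4). All 13 had their groups apart, and 5 of them (Ccl2, Nnmt, Pik3ap1, Pik3r5 and Stat3) passed whichever array was left out. The other 8 lost their call in at least 1 such fit.

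Among 29 other secreted products of adipose tissue, 3 rose and none fell (median 0.09). Ccl2, a monocyte chemoattractant, rose by 3.44 (SE 0.17, limma adjusted p = 0.000664), the lipocalin Lcn2 by 1.53 and nesfatin precursor Nucb2 by 0.76. Lcn2 lost its call without any array but DT 5 (adjusted p up to 0.142) and Nucb2 without any array but PBS 18 (up to 0.0946). None of 16 adipokine receptors and binding proteins was called (median -0.04). The smallest p values were those of Tlr4 (0.58, limma adjusted p = 0.222) and the chemerin-binding receptor Ccrl2 (0.35, limma adjusted p = 0.25).

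In the leptin receptor list, 1 of 12 genes passed (median 0.01), the signal transducer Stat3, which also serves interleukin-6 and related cytokines. It was at 11.26, 11.06 and 11.12 in DT mice and at 10.33, 10.38 and 10.45 in PBS mice, with no overlap (difference 0.76, SE 0.08, limma adjusted p = 0.00770). The leptin receptor Lepr had a weak signal, between 3.50 and 3.92 in DT mice and between 3.57 and 3.72 in PBS mice.

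The renin-angiotensin list, which surrounds Agt, had a median difference of 0.20 over 13 genes. The aminopeptidase Anpep, which cleaves angiotensin III and other peptides and is also a myeloid surface protein, rose by 1.00 (SE 0.16, limma adjusted p = 0.0308). It kept its call only without DT 16 or PBS 18, with adjusted p values up to 0.122 otherwise. In the NAD list, 1 of 20 genes passed (median -0.03). Nnmt, which methylates the nicotinamide that Nampt uses, was at 10.61, 10.60 and 10.72 in DT mice and at 9.41, 9.23 and 8.83 in PBS mice (difference 1.48, SE 0.15, limma adjusted p = 0.00606). Its rise stood beside a Nampt difference with an interval of 0.882 to 1.29-fold.

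Of 17 insulin and IGF1 receptors, substrates and adaptors, 1 fell and none rose (median 0.01). Sh2b2, an adaptor that binds the activated insulin receptor, was at 10.39, 10.37 and 10.20 in DT mice and at 10.88, 10.71 and 10.92 in PBS mice. Its difference of -0.52 (SE 0.09, limma adjusted p = 0.0448) passed only without PBS 18 when 1 array was left out (up to 0.164 otherwise). Of 18 phosphoinositide 3-kinase subunits, adaptors and phosphatases, 3 rose (median 0.02). They were the regulatory subunit Pik3r5 (0.83, SE 0.08, limma adjusted p = 0.00677), the adaptor Pik3ap1 (1.16, SE 0.12, limma adjusted p = 0.00620) and the lipid phosphatase Inpp5d (0.56, SE 0.08, limma adjusted p = 0.0235), all of them known mainly from leukocytes. The call of Inpp5d was lost with any 1 array left out (up to 0.0946). Of 11 macrophage markers, 7 lay above PBS in all DT mice and 3 passed. Others, such as C1qa (-0.03) and Cd14 (0.03), overlapped between the groups. The part of macrophages in the differences of Pik3r5, Pik3ap1 and Inpp5d was not tested.

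Of 28 AKT kinases, regulators and substrates none passed (median -0.08), and at an unadjusted p under 0.05 there were 3 higher and 5 lower. The pseudokinase Trib2 differed by -0.47 (limma adjusted p = 0.0829) and the transcription factor Foxo3 by 0.49 (limma adjusted p = 0.227). Slc2a4, the insulin-responsive glucose transporter, was singled out after its values were seen. It was at 11.96, 11.88 and 11.77 in DT mice and at 12.11, 12.06 and 12.24 in PBS mice, apart but by a small difference (-0.27, SE 0.09, limma adjusted p = 0.230).

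Of 19 inhibitors of insulin and cytokine signalling, 2 rose (median 0.10), the ubiquitin-editing enzyme Tnfaip3 (0.59, limma adjusted p = 0.0178) and the kinase Prkcd (0.50, limma adjusted p = 0.0409). Tnfaip3 kept its call only without PBS 18 or PBS 20 (up to 0.0821 otherwise), and Prkcd lost it with any 1 array left out (up to 0.143). None of 13 insulin-like growth factors and binding proteins passed (median 0.05; Igfbp4 0.39, limma adjusted p = 0.118, Igfbp7 0.30, limma adjusted p = 0.129). Of 13 adipocyte transcription factors 1 fell (median 0.02). This was Srebf1, a lipogenic factor that insulin induces, at 9.86, 9.88 and 9.81 in DT mice and at 10.41, 10.21 and 10.34 in PBS mice (difference -0.47, SE 0.08, limma adjusted p = 0.0371). It passed only without PBS 18 when 1 array was left out (up to 0.152 otherwise).

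**Figure D4:**
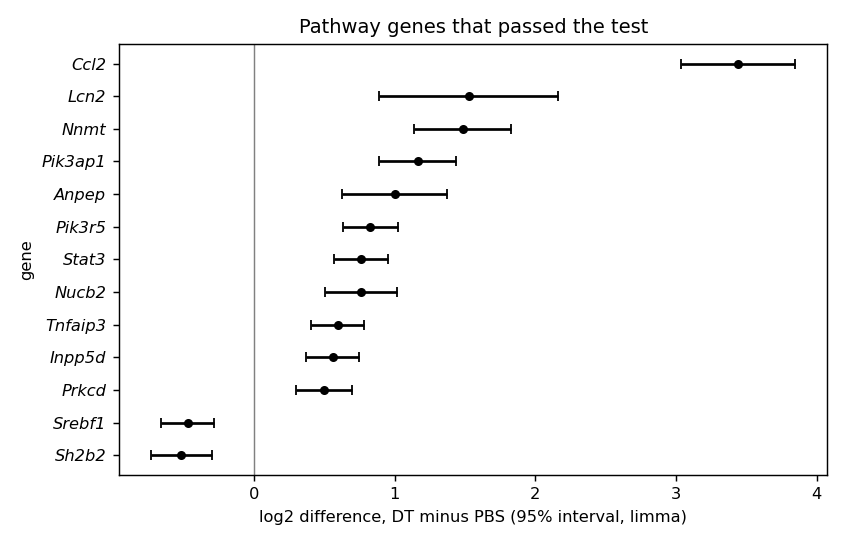
log2 difference, DT minus PBS (x axis), with 95% intervals from limma, of the 13 pathway genes (y axis) with an adjusted p under 0.05. Of these, 11 lie above 0, led by Ccl2 at 3.44, and Srebf1 and Sh2b2 lie below 0.

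None of 18 FOXO-dependent and insulin-regulated genes passed (median 0.12). Sesn1 differed by -0.21 (limma adjusted p = 0.228) and Pck1, the enzyme of glyceroneogenesis, by 0.27 (limma adjusted p = 0.255). Within this list Angptl8, a secreted protein that insulin and feeding are known to induce, was singled out after its values were seen. It was at 9.75, 9.56 and 9.42 in DT mice 5, 9 and 16 and at 11.09, 9.30 and 11.32 in PBS mice 12, 18 and 20. PBS 18 lay below all DT mice while the other two PBS mice lay above them (difference -0.996, SE 0.48, limma adjusted p = 0.451). Without PBS 18 the difference was -1.63 (adjusted p = 0.00707), and no other fit with 1 array left out passed. Over those fits the difference ran from -1.63 to -0.62, with limma adjusted p up to 0.717. PBS 18 also had the highest Irs2 of the PBS group. Its mean log2 level of macrophage markers was the highest of that group too (7.35, against 7.08 in PBS 12 and 7.03 in PBS 20). The same held for fibroblast and preadipocyte markers (9.31, against 9.01 in PBS 12 and 8.89 in PBS 20). The part of these cell types in the Irs2 and Angptl8 values was not tested. Pck1 was at 13.25, 13.14 and 13.17 in DT mice and at 12.76, 13.02 and 12.98 in PBS mice, and Foxo1, chosen in the same way as Angptl8, at 9.70, 10.09 and 10.21 in DT mice and at 9.17, 9.65 and 9.76 in PBS mice. In these PBS 18 did not stand apart from PBS 20.

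**Figure D5:**
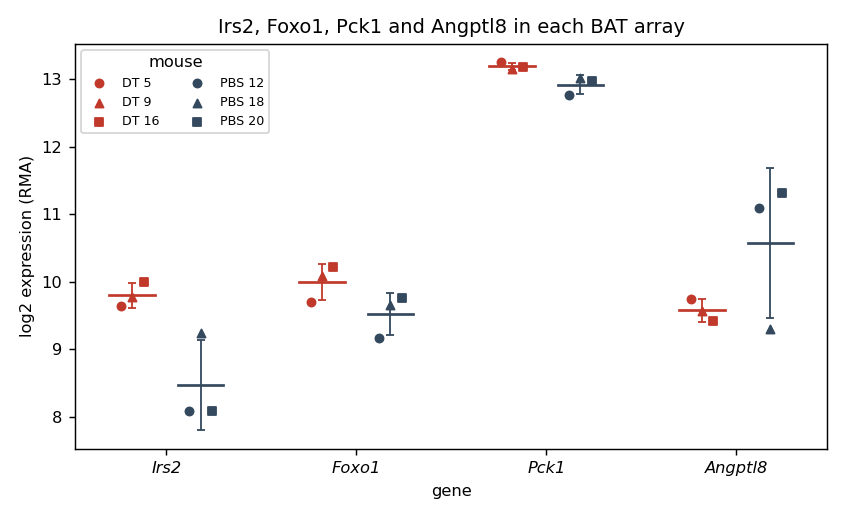
log2 expression (y axis) of Irs2, Foxo1, Pck1 and Angptl8 in each mouse, with DT left of PBS. Points are single mice, lines are means and bars are SD (n = 3 per group); PBS 18 (triangle) has the highest Irs2 (9.24) and the lowest Angptl8 (9.30) of the PBS mice.

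The features whose values over the 6 arrays ran closest to those of Irs2, Agt and Irs1 were found by the root mean square difference between log2 values centred on each gene's mean. For Irs2 they were the cyclin Ccna2 (0.20), the NAD-consuming surface enzyme Bst1 (0.21) and the haem-degrading enzyme Hmox1 (0.21), where Irs2 itself varied by 0.78 around its mean. For Agt they were the ceramide synthase Cers6 (0.17), the acute phase protein Serpina3n (0.19) and the matrix protein Thbs2 (0.19), where Agt varied by 0.63. Since they were picked for a pattern that was higher in DT, a difference between the groups was built into the choice. The 3 neighbours of Irs2 also shared its high value in PBS 18 within the PBS group, which came with the choice. Ccna2 was at 6.15 in PBS 18 and at 4.83 and 5.00 in PBS 12 and PBS 20. Hmox1, Serpina3n and Thbs2 passed the test (log2 differences 1.44, 1.33 and 1.11). Ccna2, Bst1 and Cers6 did not (1.68, 1.04 and 0.89). Irs1 had the closest neighbours, the prostaglandin receptor Ptger3 (0.07), Sntb1 (0.07) and Smoc1 (0.08), against 0.45 for Irs1 itself. All 3 shared the high value of DT 5, as Ptger3 was at 8.32 in DT 5 and at 7.47 and 7.33 in DT 9 and DT 16. This too was built into the choice, since they were picked for closeness to Irs1.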

How the data were processed

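Each of the 6 Affymetrix arrays held the biotin-labelled BAT RNA of 1 mouse. The authors deposited log2 values, with 1 feature for each Entrez gene. Probes had been regrouped with a custom chip definition file (version 14), and RMA and quantile normalization are named as the steps that gave the values. These values are relative: a shift shared by all genes is lost, and weak or very bright genes are compressed. Arrays have no read depth, and their number limits the precision.

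The sample titles gave the groups. A symbol from the platform annotation, brought up to date through Entrez numbers, was found for 23185 of 25206 features, and 2021 are unnamed here. Every feature entered 1 limma fit (version 3.58.1, R 4.3.3) of DT minus PBS, with p-values for either direction adjusted over the whole table by the method of Benjamini and Hochberg. The procedure was run on simulated data drawn around the real means with the spread of its own fit and without outlying arrays. Such data cannot show how the calls depend on single arrays. SE and 95% intervals are those of the moderated fit, with n = 3 per group. Its p-values set each difference against a spread estimated from these mice and from all features. The analysis of variance used in the study was not repeated. Alternatives were 3 further normalizations, 2 filters on low signal, a trended robust prior, array weights, no moderation, 2 other thresholds and leaving out each array.

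The 10 genes, the 12 pathway lists, the 9 marker lists and the rules were chosen with earlier results of these data known. Named were all 10 genes, up to 4 called genes of each pathway list or, with none, the 2 with the smallest p, the 3 nearest features by pattern of the 3 genes with the smallest p, Foxp3, and Ucp1 and markers that stood apart. Outside this rule, and after their values were seen, Slc2a4, Angptl8, Foxo1, Lepr, Dio2, Prdm16 and some other markers were named. Listed genes without a named feature were left out. Upstream sequences are from RefSeq (GRCm38.p6).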

Additional observations from a re-analysis of the deposited data

How the results depend on the processing

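Of the 10 genes, none was called in the limma fit with all arrays, nor with the further normalizations, filters, array weights or the trended prior. The count was 0 to 1 with 1 array left out (Irs1 without DT 5, Irs2 without PBS 18), 1 at an adjusted p under 0.1 (Irs2) and 2 at 2-fold and an unadjusted p below 0.01 (Agt and Irs2). Without moderation 0 were called, with 3 at an unadjusted p under 0.05 (Agt, Irs2 and Akt2), against 5 with limma. Retn alone changed sign, to -0.24 without DT 5 and -0.27 without PBS 20, in a range up to 0.24 (without DT 9). The other 9 kept their direction in all alternatives in which they were tested.

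Of the pathway genes, 13 were called with all arrays, 5 to 13 with 1 array left out, 5 at 2-fold and an unadjusted p below 0.01, and 0 without moderation (51 at an unadjusted p under 0.05). Of all features, 436 were called, 135 to 374 with 1 array left out (135 without DT 9, 137 without DT 16, 147 without PBS 12, 140 without PBS 20), 659 with an intensity trend and robust prior, 736 at an adjusted p under 0.1, 177 at 2-fold and an unadjusted p below 0.01, and 0 without moderation (2986 at an unadjusted p under 0.05). The cause of these shifts was not tested. No paired analysis was possible because the groups share no mouse number.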
